A study of Mus musculus with 8 samples.

Results

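The endothelial marker genes are 32 genes used to recognise the cells that line blood and lymph vessels and the inner face of the heart. They were chosen by symbol from the 23847 entries of the deposited expression table. All 32 were found, each in a single entry, and all 32 had a mean of at least 1 FPKM, as did 11974 entries in the whole table. FPKM, fragments per kilobase of transcript relative to all fragments of a library, is a level per transcript length. The measurements came from 8 libraries of ventricular tissue of C57BL/6 mice at postnatal day 21. The labels name 4 libraries Med1cKO, with the genotype Med1KO, and 4 libraries WT. The design text describes the first as a cardiac knockout of Med1 and the second as Med1fl/fl, so the controls carried floxed Med1 alleles and not an unmodified gene. Ventricles were snap frozen, RNA was extracted with Trizol, and poly(A) RNA was made into stranded TruSeq libraries. Neither the driver of the deletion nor the number of animals behind a library is given in the sources used here, so p-values measure the spread between these samples only.

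Endothelial cells hold the vessel wall together through cadherin and claudin junctions and respond to vascular endothelial growth factors (VEGF) through the receptors Kdr, Flt1 and Flt4. Angiopoietins act on them through Tek and its partner Tie1, and ETS, SOX and KLF transcription factors maintain their identity. In heart muscle, capillary endothelium lies beside nearly every cardiomyocyte and exchanges signals with it. Endocardium, arteries, veins and lymphatics differ from capillaries in which of these genes they express.

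Med1, a subunit of the Mediator complex, checks the labels. Its level was 7.80, 8.37, 7.89 and 9.15 FPKM in knockouts 1 to 4, against 15.5, 16.1, 10.6 and 16.8 FPKM in WT 1 to 4. The groups did not overlap, and the exact two-sided permutation p of 0.0286 is the smallest that 70 assignments allow. Total FPKM was 481650 to 502549 in the knockout libraries and 507458 to 536146 in WT, and fragment totals are unknown. The median log2 change (knockout minus WT, on log2(FPKM + 1)) over all genes tested was 0.25 as deposited. It was 0.01 once each library was divided by its median ratio to a common reference, here called rescaled. Both scales are given for the called members, because a member with a small change can differ in sign between them. Of 10 cardiomyocyte markers 9 fell on both scales (against 16.4% of all genes tested) and Actn2 rose on both (against 27.0%). Their summed level was 17902 to 27620 FPKM in the knockout libraries and 53666 to 59473 FPKM in WT. Ventricular Myl2 was abundant in every library, at 4376 to 7865 FPKM in the knockout and 15489 to 17417 FPKM in WT. The atrial gene Myl7 was at 61.6, 42.6, 2.50 and 726 FPKM in knockouts 1 to 4 and at most 0.68 FPKM in WT, so knockout 4 stood apart. In bulk tissue, fewer cells of a type and less RNA per cell cannot be told apart.

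The endothelial markers changed in both directions. Plvap, Vwf and Flt4 were higher in the knockout on both scales, and Kdr, Tie1, Prox1 and Ushbp1 were lower on both scales. Another 5 members (Pecam1, Cldn5, Eng, Ptprb and Sox17) were higher as deposited only, and 7 (Cdh5, Icam2, Tek, Erg, Sox18, Klf2 and Ramp2) were lower after rescaling only. The remaining 13 were called on neither scale at a limma adjusted p under 0.05. Counted as deposited, 8 members (25.0%) were higher, against 44.9% of all genes tested, and 4 (12.5%) were lower, against 16.4%. After rescaling, 3 members (9.38%) were higher, against 27.0% of all genes, and 11 (34.4%) were lower, against 26.9%. Of all genes tested, 27.0% were called higher on both scales and 16.4% lower on both. The members' median log2 change was 0.13 as deposited and -0.14 rescaled, below the all-gene medians of 0.25 and 0.01. With no expression minimum in the fit, the deposited calls of Pecam1, Cldn5, Kdr, Tie1, Eng, Vwf, Sox17 and Prox1 were lost (adjusted p = 0.0565 to 0.134), and Plvap, Flt4, Ptprb and Ushbp1 kept theirs. The sum of the 32 members was 1225, 1119, 1121 and 1343 FPKM in knockouts 1 to 4 and 1046, 1158, 1074 and 989 FPKM in WT 1 to 4, so the groups overlapped. All 32 are protein-coding in the GENCODE annotation of mm10. The members called on both scales include Kdr (chr5:75933270-75978428), Tie1 (chr4:118471191-118489849), Flt4 (chr11:49609679-49652739), Vwf (chr6:125552948-125686679) and Prox1 (chr1:190121777-190170680).

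**Figure D1:**
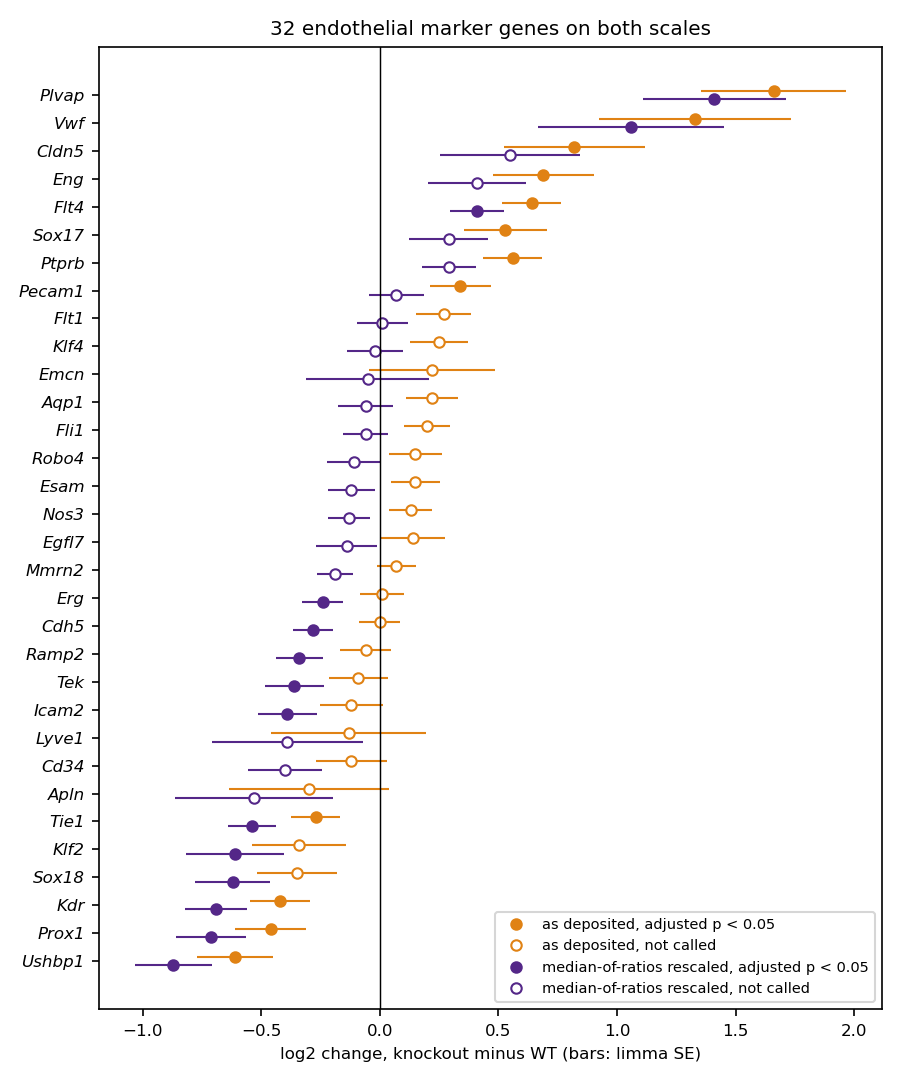
Log2 change (knockout minus WT, log2(FPKM + 1)) of each of the 32 members as deposited and after rescaling, with limma standard errors (n = 4 libraries per group). Plvap, at 1.66 and 1.41, and Vwf, at 1.33 and 1.06, are the members furthest above 0, and Ushbp1, at -0.61 and -0.87, is the furthest below.

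The libraries of the groups were completely separated for few members. As deposited, all knockout values lay above all WT values for 3 members (Plvap, Flt4 and Ptprb), against 41.7% of all genes, and below them for 1 (Ushbp1), against 15.3%. After rescaling, 2 members (Plvap and Flt4) lay wholly above, against 25.8% of all genes. The knockout lay wholly below for 7 (Cdh5, Kdr, Tie1, Erg, Sox18, Prox1 and Ushbp1), against 25.7%. The spread was wider in the knockout: the members' median coefficient of variation was 17.2% in the knockout and 13.1% in WT, and over all genes it was 13.8% and 10.0%. WT 2 was the highest WT library for the members lower on both scales, Kdr (42.4 FPKM), Tie1 (41.2), Prox1 (10.5) and Ushbp1 (29.6). Of the other called members, it was highest for Pecam1, Cdh5, Cldn5, Icam2, Tek, Eng, Erg, Sox17, Klf2 and Ramp2. It was not for Plvap, Flt4, Vwf, Ptprb or Sox18. As deposited, 2 members were lower without WT 2, knockout 2 or knockout 4, and 1 without knockout 3. Rescaled, Kdr, Tie1, Prox1 and Ushbp1 kept their calls without WT 2.

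Among the 8 junction and surface genes, Plvap was called higher on both scales. Plvap forms the diaphragms of fenestrae and caveolae and is sparse in continuous capillaries. It was at 18.3, 13.8, 9.82 and 33.3 FPKM in knockouts 1 to 4 and at 5.55, 3.52, 5.45 and 4.54 FPKM in WT 1 to 4. Every knockout library lay above every WT library, and knockout 4 was the highest. The means were 18.8 ± 10.3 and 4.76 ± 0.945 FPKM (SD, n = 4), a 3.95-fold difference. The estimated log2 change was 1.66 ± 0.307 (SE, limma adjusted p = 0.00121) as deposited and 1.41 (adjusted p = 0.00339) rescaled. Plvap (chr8:71497753-71511769, mm10) overlaps Gtpbp3 on the opposite strand, and use of strand in the counting is not given in the sources.

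Pecam1, the platelet endothelial adhesion molecule CD31, was at 89.9, 63.7, 72.6 and 92.9 FPKM in the knockout and 64.5, 68.2, 60.7 and 55.3 FPKM in WT. Knockout 2 lay within the WT range and the other knockout libraries above it. The fitted log2 change was 0.34 ± 0.128 (SE, limma adjusted p = 0.0416) as deposited and 0.07 (adjusted p = 0.66) rescaled. The call as deposited was lost without knockout 1 (adjusted p = 0.0995), knockout 4 (0.0982), WT 1 (0.0661), WT 3 (0.0851) or WT 4 (0.108). Cdh5, the VE-cadherin of adherens junctions, was nearly level as deposited: 73.5, 68.4, 70.3 and 65.9 FPKM in the knockout and 67.1, 80.7, 68.4 and 63.3 FPKM in WT. Its estimate on the log2 scale was 0.00 (limma adjusted p = 0.984) as deposited and -0.28 (adjusted p = 0.02) rescaled. These 2 pan-endothelial genes therefore differed in call on each scale, and neither was called on both.

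Cldn5, the main claudin of endothelial tight junctions, was at 38.5, 25.4, 26.4 and 25.6 FPKM in the knockout and 11.8, 31.2, 15.9 and 10.4 FPKM in WT. WT 2 lay above 3 of the 4 knockout libraries. In the fit the log2 change was 0.82 ± 0.298 (SE, limma adjusted p = 0.0384) as deposited and 0.55 (adjusted p = 0.146) rescaled. The call as deposited was lost on leaving out any library except WT 2, with adjusted p between 0.052 and 0.105. Icam2, an adhesion ligand for leukocytes, was at 32.6, 23.5, 26.2 and 30.3 FPKM in the knockout and 30.9, 37.2, 29.4 and 25.5 FPKM in WT. The groups overlapped, with a log2 change of -0.12 (limma adjusted p = 0.446) as deposited and -0.39 (adjusted p = 0.023) rescaled. The rescaled call of Icam2 was lost without knockout 2 (adjusted p = 0.0601), knockout 3 (0.0648), WT 1 (0.0504) or WT 2 (0.0565).

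Cd34, a sialomucin also found on progenitor and stromal cells, was the second most abundant member in WT. It was at 58.6, 90.5, 90.9 and 92.0 FPKM in the knockout and 92.5, 76.8, 89.0 and 97.5 FPKM in WT. Knockout 1 alone lay below the WT range, and the log2 change was -0.12 (limma adjusted p = 0.519) as deposited and -0.40 (adjusted p = 0.0577) rescaled. Emcn, a sialomucin of capillary and venous endothelium, was at 42.4, 31.2, 31.1 and 78.3 FPKM in the knockout, where knockout 4 stood far above the rest, and at 31.9 to 42.1 FPKM in WT. Esam, a junctional adhesion molecule, ranged from 47.7 to 56.8 FPKM in the knockout and from 39.8 to 52.9 FPKM in WT. Neither Emcn nor Esam was called on either scale.

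**Figure D2:**
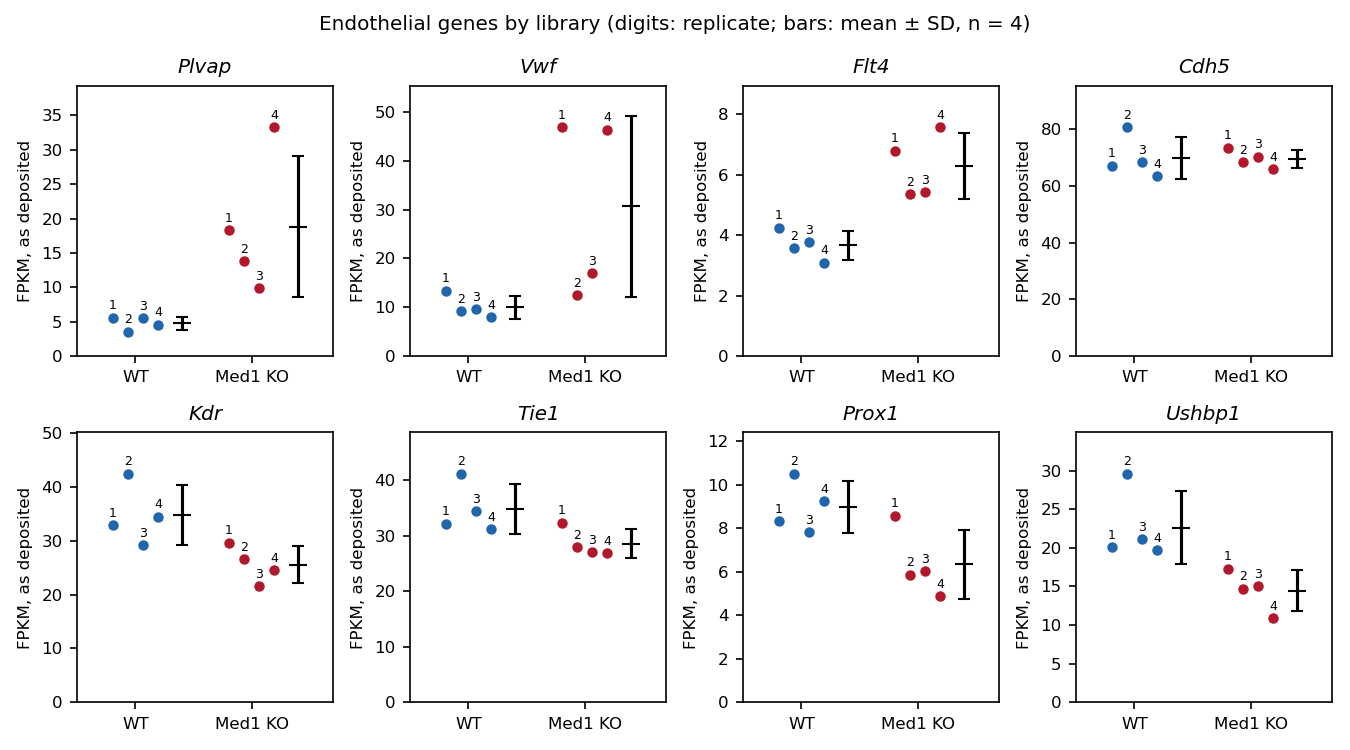
FPKM as deposited of the members Plvap, Vwf, Flt4, Cdh5, Kdr, Tie1, Prox1 and Ushbp1 in each library (points numbered by replicate, n = 4 per group; bars, mean ± SD; each panel has its own axis starting at 0). Plvap and Flt4 are separated with the knockout above and Ushbp1 with the knockout below. The groups overlap for the other members shown.

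Of the 3 VEGF receptors, Kdr was lower and Flt4 higher on both scales, and Flt1 was not called. Kdr, the main signalling receptor for VEGF-A, was at 29.6, 26.5, 21.6 and 24.5 FPKM in the knockout and 32.9, 42.4, 29.2 and 34.4 FPKM in WT. Only knockout 1 reached the lowest WT value. The means were 25.6 ± 3.37 and 34.7 ± 5.56 FPKM (SD, n = 4). On the log2 scale the difference was -0.42 ± 0.128 (SE, limma adjusted p = 0.0171) as deposited and -0.69 (adjusted p = 0.00169) rescaled. Leaving out knockout 3 gave -0.35 (adjusted p = 0.0502) as deposited, and fitting Kdr with no expression minimum gave an adjusted p of 0.0565. Flt4, the receptor for VEGF-C and a marker of lymphatic and sprouting endothelium, was the least abundant member in WT. It was at 6.80, 5.37, 5.43 and 7.58 FPKM in the knockout and 4.25, 3.58, 3.76 and 3.09 FPKM in WT, without overlap. The means were 6.30 ± 1.08 and 3.67 ± 0.481 FPKM (SD, n = 4), a 1.72-fold difference. The log2 change of Flt4 was 0.64 ± 0.123 (SE, limma adjusted p = 0.00158) as deposited and 0.41 (adjusted p = 0.0141) rescaled, and the call stood on both scales without any 1 of the 8 libraries. Flt1, a receptor that also binds VEGF-A as a decoy, ranged from 18.2 to 26.5 FPKM in the knockout and from 15.9 to 18.4 FPKM in WT. The estimated log2 change was 0.27 (limma adjusted p = 0.0667) as deposited and 0.01 (adjusted p = 0.964) rescaled.

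The angiopoietin receptors were lower or not called. Tie1, the partner of Tek, was at 32.4, 28.0, 27.1 and 26.9 FPKM in the knockout and 32.2, 41.2, 34.4 and 31.2 FPKM in WT. Knockout 1 was at the level of WT 1, and the other knockout libraries lay below every WT library. The fitted log2 change was -0.27 ± 0.103 (SE, limma adjusted p = 0.0466) as deposited and -0.54 (adjusted p = 0.00163) rescaled. As deposited the call was lost without knockouts 2, 3 or 4 (adjusted p = 0.0855, 0.107 and 0.0962) or without WT 1, 2 or 3 (adjusted p = 0.0538, 0.114 and 0.0845). It was also lost with no variance trend (adjusted p = 0.0548) and with no expression minimum (adjusted p = 0.0974). Rescaled, the call of Tie1 stood without any 1 library. Tek, the angiopoietin receptor Tie2, was at 22.9, 18.2, 21.1 and 15.9 FPKM in the knockout and 21.8, 23.3, 17.4 and 20.6 FPKM in WT, which overlap. Its estimate on the log2 scale was -0.09 (limma adjusted p = 0.545) as deposited and -0.36 (adjusted p = 0.0353) rescaled. That call was lost without knockout 2 (adjusted p = 0.0734), knockout 4 (0.0758), WT 1 (0.0799), WT 2 (0.0909) or WT 4 (0.0724). Ptprb, the phosphatase VE-PTP that acts on Tek and Cdh5, was at 38.4, 26.3, 33.3 and 39.1 FPKM in the knockout and 21.6, 23.6, 24.5 and 21.0 FPKM in WT. All knockout values lay above WT as deposited. The log2 change of Ptprb was 0.56 ± 0.125 (SE, limma adjusted p = 0.0035), and 0.29 (adjusted p = 0.0572) rescaled.

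Eng, the co-receptor endoglin for BMP9 and TGF-beta, was at 108, 71.6, 67.0 and 132 FPKM in the knockout and 57.5, 68.3, 52.0 and 48.9 FPKM in WT. Knockouts 1 and 4 lay far above WT, knockout 2 just above, and knockout 3 within the WT range. In the fit the log2 change was 0.69 ± 0.213 (SE, limma adjusted p = 0.0191) as deposited and 0.41 (adjusted p = 0.122) rescaled. As deposited the call was lost without knockout 1 (0.60, adjusted p = 0.052) or WT 4 (0.62, adjusted p = 0.0533). Eng overlaps Fpgs on the opposite strand. Robo4, a guidance receptor of quiescent endothelium, ranged from 14.3 to 18.3 FPKM in the knockout and from 12.4 to 16.5 FPKM in WT and was not called.

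The promoter sequences of 4 receptor and signalling members are printed to show the DNA next to genes that changed in opposite directions. They are Kdr, Tie1 and Ushbp1, lower on both scales, and Flt4, higher on both. Each is the 150 bases before the annotated start, from RefSeq on GRCm38.p6, written in the direction of the gene. Capitals mark an ETS core (AGGAAG, or CTTCCT where it lies on the opposite strand) or a KLF core (CACACCC). The windows are chr5:75978456-75978605 (minus strand) for Kdr, chr4:118489850-118489999 (minus) for Tie1, chr8:71395802-71395951 (minus) for Ushbp1 and chr11:49609529-49609678 (plus) for Flt4.
Kdr: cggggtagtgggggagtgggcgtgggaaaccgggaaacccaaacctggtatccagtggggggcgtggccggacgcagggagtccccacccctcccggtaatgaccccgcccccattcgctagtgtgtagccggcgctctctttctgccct
Tie1: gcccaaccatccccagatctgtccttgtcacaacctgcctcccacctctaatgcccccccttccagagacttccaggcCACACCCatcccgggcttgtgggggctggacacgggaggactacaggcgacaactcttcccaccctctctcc
Ushbp1: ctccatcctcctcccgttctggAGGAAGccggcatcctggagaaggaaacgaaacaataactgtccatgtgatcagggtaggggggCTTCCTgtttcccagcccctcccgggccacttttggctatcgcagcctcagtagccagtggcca
Flt4: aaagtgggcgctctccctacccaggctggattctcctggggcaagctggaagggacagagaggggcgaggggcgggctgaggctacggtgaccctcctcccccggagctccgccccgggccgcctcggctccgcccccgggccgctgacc
Tie1 holds 1 KLF core, at positions -72 to -66 from the start. Ushbp1 holds 2 ETS cores, at -128 to -123 and, on the opposite strand, at -64 to -59. Kdr and Flt4 hold no match to these motifs in the printed window. The GC content of the 4 windows was 67.3% (Kdr), 62.7% (Tie1), 58.7% (Ushbp1) and 74.0% (Flt4), above the median of 54.0% over all promoters in the reference. Of the 32 members, 18 had a promoter entry. Within 250 bases before the start, on either strand, 11 of 18 (61.1%) held AGGAAG, against 32.3% of the promoters of 27025 genes. The SOX core ACAAAG was in 6 of 18 (33.3%), against 18.6%. CACACCC was in 1 of 18 (5.56%), against 7.9%, and the AP-1 motif TGACTCA was in 0 of 18, against 5.16%. These are matches of letters and were not tested as binding sites.

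Vwf was the secreted member with a difference. It encodes von Willebrand factor, the platelet-binding protein of endothelial storage granules, which is low in capillaries and higher in large vessels and endocardium. It was at 46.9, 12.4, 16.9 and 46.4 FPKM in the knockout and 13.4, 9.24, 9.52 and 7.90 FPKM in WT. Knockouts 1 and 4 were high, and knockout 2 lay within the WT range. The means were 30.6 ± 18.5 and 10.0 ± 2.36 FPKM (SD, n = 4), a 3.06-fold difference. On the log2 scale the difference was 1.33 ± 0.405 (SE, limma adjusted p = 0.0176) as deposited and 1.06 (adjusted p = 0.0446) rescaled. Rescaled, the call was lost without knockout 1 (0.80, adjusted p = 0.11) or knockout 4 (0.81, adjusted p = 0.104). It was also lost without WT 1, 2, 3 or 4 (adjusted p = 0.0542, 0.091, 0.0889 and 0.103). The deposited call of Vwf was lost with no expression minimum (adjusted p = 0.0798).

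The other secreted and matrix members were not called. Egfl7, an extracellular regulator of vessel formation, ranged from 52.0 to 69.4 FPKM in the knockout and from 49.5 to 67.9 FPKM in WT, and it overlaps Gm20532 on its own strand and Agpat2 on the other. Mmrn2, an endothelial matrix protein, ranged from 14.6 to 17.1 FPKM in the knockout and from 13.2 to 16.2 FPKM in WT. Apln, the apelin peptide of tip cells, was at 3.24, 6.34, 3.08 and 11.0 FPKM in the knockout and 8.28, 4.29, 7.48 and 7.31 FPKM in WT. Knockout 4 was the highest of all 8 libraries and knockouts 1 and 3 were the lowest. The estimated log2 change was -0.30 (limma adjusted p = 0.467) as deposited and -0.53 (adjusted p = 0.208) rescaled.

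Of the 7 transcription factors, 1 was called on both scales. This was Prox1. It is the master regulator of lymphatic identity and is also expressed by cardiomyocytes. It was at 8.57, 5.86, 6.01 and 4.89 FPKM in the knockout and 8.31, 10.5, 7.82 and 9.23 FPKM in WT, with only knockout 1 inside the WT range. The fitted log2 change was -0.46 ± 0.149 (SE, limma adjusted p = 0.0234) as deposited and -0.71 (adjusted p = 0.00315) rescaled. As deposited the call was lost without knockouts 2, 3 or 4 (adjusted p = 0.0537, 0.056 and 0.0561), WT 2 (0.0658) or WT 4 (0.0552), and rescaled it stood without any 1 library. The fall of the cardiomyocyte markers runs in the same direction, and its part in the Prox1 result was not tested. Of the lymphatic genes measured beside it, Flt4 rose and Lyve1 was not called. Lyve1, a hyaluronan receptor of lymphatic endothelium and of some macrophages, was at 14.7, 7.13, 8.15 and 22.3 FPKM in the knockout and 16.6, 8.76, 15.0 and 13.2 FPKM in WT. Knockout 4 was the highest and knockouts 2 and 3 the lowest of the 8 libraries, with a log2 change of -0.13 (limma adjusted p = 0.748) as deposited and -0.39 (adjusted p = 0.328) rescaled. The 10 macrophage markers summed to 108 to 177 FPKM in the knockout and 154 to 209 FPKM in WT, none was at 0 in all libraries, and their part was not tested.

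Among the SOX and ETS factors, Sox17, of arterial endothelium, was at 9.60, 5.03, 6.77 and 6.03 FPKM in the knockout and 3.99, 5.31, 4.65 and 3.51 FPKM in WT. Knockout 2 lay below the highest WT value. Its estimate on the log2 scale was 0.53 ± 0.175 (SE, limma adjusted p = 0.0246) as deposited and 0.29 (adjusted p = 0.165) rescaled. As deposited it was lost without knockout 3 (adjusted p = 0.0548), WT 1 (0.0631) or WT 4 (0.0696). Its relative Sox18 was at 21.1, 15.1, 15.2 and 21.9 FPKM in the knockout and 24.2, 22.4, 29.9 and 18.3 FPKM in WT, which overlap. The log2 change of Sox18 was -0.35 (limma adjusted p = 0.0981) as deposited and -0.62 (adjusted p = 0.00904) rescaled, and the rescaled call stood without any 1 library. Sox17 and Sox18 therefore had estimates of opposite sign as deposited. Erg, an ETS factor of resting endothelium, was at 10.2, 10.3, 12.8 and 12.7 FPKM in the knockout and 11.3, 12.0, 11.4 and 10.7 FPKM in WT. In the fit the log2 change was 0.01 (limma adjusted p = 0.904) as deposited and -0.24 (adjusted p = 0.038) rescaled. The rescaled call of Erg was lost on leaving out any library except knockout 3 or 4, with adjusted p between 0.062 and 0.0924. Fli1, the related ETS factor, ranged from 9.24 to 12.1 FPKM in the knockout and from 8.18 to 10.2 FPKM in WT and was not called.

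Klf2, which endothelium induces under laminar flow, was at 17.4, 26.8, 23.7 and 21.5 FPKM in the knockout and 20.4, 41.1, 27.9 and 27.2 FPKM in WT. WT 2 was the highest library. On the log2 scale the difference was -0.34 (limma adjusted p = 0.163) as deposited and -0.61 (adjusted p = 0.0306) rescaled. The rescaled call was lost on leaving out any library except knockout 2 or WT 1, with adjusted p between 0.0537 and 0.0805. Klf4, its flow-responsive relative, ranged from 20.2 to 23.5 FPKM in the knockout and from 14.8 to 21.9 FPKM in WT and was not called.

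Of the enzyme, channel and signalling members, Ushbp1 was lower. Ushbp1 encodes a PDZ-binding protein found mainly in endothelium. It was at 17.3, 14.7, 15.0 and 10.9 FPKM in the knockout and 20.1, 29.6, 21.1 and 19.7 FPKM in WT, with every knockout library below every WT library. The means were 14.5 ± 2.69 and 22.6 ± 4.71 FPKM (SD, n = 4), so that WT was 1.56-fold higher. The estimated log2 change was -0.61 ± 0.161 (SE, limma adjusted p = 0.00892) as deposited and -0.87 (adjusted p = 0.00153) rescaled. The call stood on both scales without any 1 library, and the gene lies at chr8:71384274-71395801 (mm10).

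Aqp1, the water channel of capillary endothelium and red cells, was the most abundant member in WT. It was at 192, 272, 250.3 and 248 FPKM in the knockout and 202, 193, 222 and 200.0 FPKM in WT. Knockout 1 was the lowest of all 8 libraries and the other knockout libraries were the highest. The fitted log2 change was 0.22 (limma adjusted p = 0.104) as deposited and -0.06 (adjusted p = 0.71) rescaled. The blood and platelet markers varied widely in both groups, with sums of 1221 to 10388 FPKM in the knockout and 1393 to 7079 FPKM in WT, and their part was not tested. Ramp2, the partner of the adrenomedullin receptor, was at 67.8, 50.3, 53.1 and 59.8 FPKM in the knockout and 60.0, 66.0, 61.4 and 53.5 FPKM in WT. The groups overlapped, with a log2 change of -0.06 (limma adjusted p = 0.62) as deposited and -0.34 (adjusted p = 0.016) rescaled. Without knockout 3 the rescaled call was lost (adjusted p = 0.0503), and Ramp2 overlaps Vps25 on the same strand. Nos3, the endothelial nitric oxide synthase, ranged from 10.8 to 12.9 FPKM in the knockout and from 9.74 to 12.4 FPKM in WT, was not called, and overlaps Atg9b on the opposite strand.

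Several members were higher in knockouts 1 and 4 than in knockouts 2 and 3, though some of them, such as Sox18 and Icam2, stayed within the WT range. The share of all genes with this order was not counted. Pecam1, Icam2, Emcn, Plvap, Flt1, Flt4, Eng, Ptprb, Vwf, Egfl7, Sox18, Nos3, Ramp2 and Lyve1 had their highest knockout values in these 2 libraries, and Esam, Robo4, Klf2 and Aqp1 their lowest. The endocardial and venous genes Npr3 (12.2, 3.78, 3.18 and 15.3 FPKM in knockouts 1 to 4) and Selp (1.96, 0.714, 0.593 and 5.81 FPKM) were also highest in these 2 libraries. Of the same list, Nr2f2, Ephb4, Cytl1, Tmem100, Cgnl1, Icam1 and Darc had this order among the knockout libraries. Nrp2, Nfatc1, Vcam1, Lrg1 and Sele did not. The 5 atrial genes Myl7, Myl4, Sln, Bmp10 and Mybphl, chosen after values were seen, summed to 169, 103, 22.0 and 1766 FPKM in knockouts 1 to 4. They summed to 4.35 to 6.48 FPKM in WT, where 2 of them, Sln and Bmp10, were listed at 0 in every library. The epicardial markers summed to 10.5, 4.58, 2.96 and 63.6 FPKM in knockouts 1 to 4 and to 1.87 to 10.4 FPKM in WT, with none at 0 in all libraries. No calls are given for the atrial genes, because they were chosen after values were seen. Myl7, Sln and Bmp10 reached the expression minimum only through the knockout libraries, and Mybphl was under it. The origin of the atrial and epicardial transcripts is not given by the labels, and their part in the members' results was not tested.

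**Figure D3:**
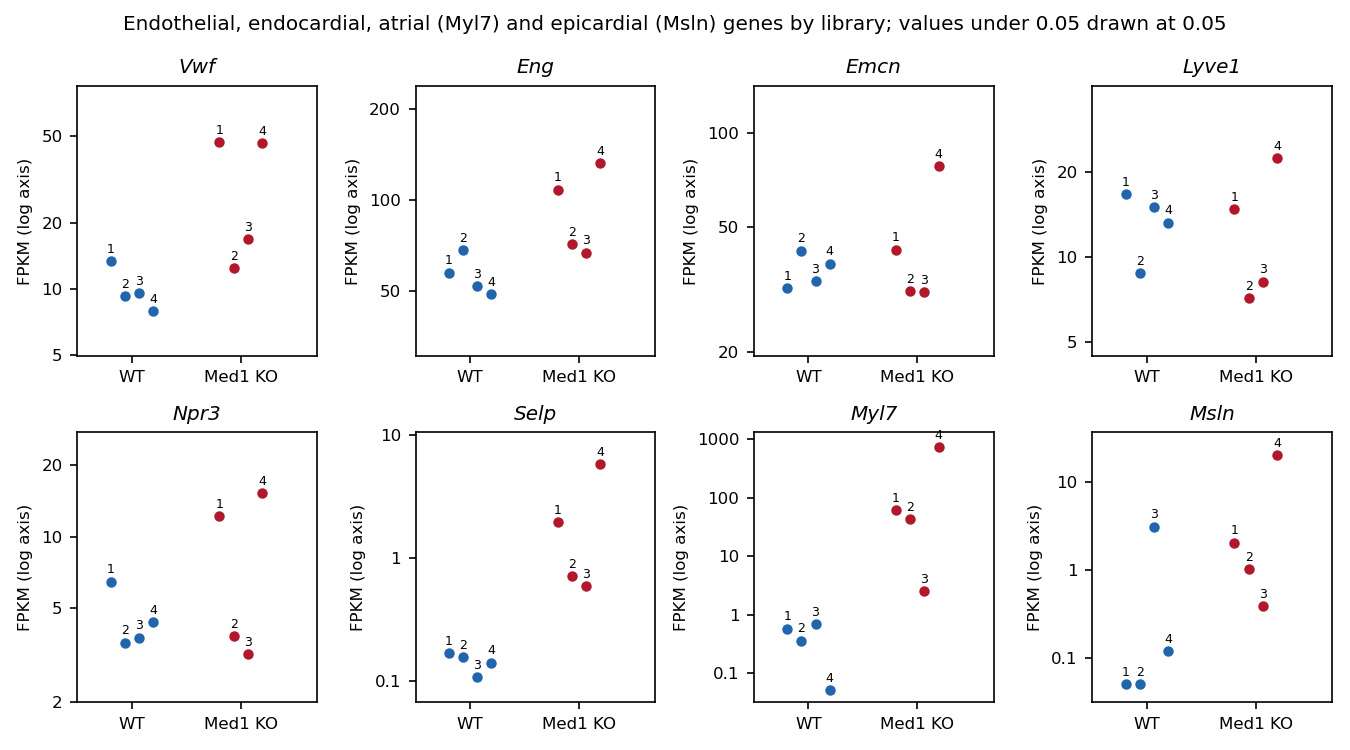
FPKM as deposited (log axes) of the members Vwf, Eng, Emcn and Lyve1, the endocardial and venous genes Npr3 and Selp, the atrial Myl7 and the epicardial Msln in each library, numbered by replicate. Knockout 4 is the highest library in 7 of the 8 panels and just below knockout 1 for Vwf, at 46.4 against 46.9 FPKM.

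Without knockouts 1 and 4, a setting added after the data were seen, 4 members were higher as deposited (Aqp1, Flt4, Plvap and Ptprb), against 42.3% of all genes. Another 5 were lower (Kdr, Lyve1, Prox1, Sox18 and Ushbp1), against 16.0%. Rescaled, Plvap alone was higher, against 26.4% of all genes, and 9 members were lower (Emcn, Icam2, Kdr, Lyve1, Prox1, Ramp2, Sox18, Tie1 and Ushbp1), against 25.1%. Vwf then had a log2 change of 0.52 (limma adjusted p = 0.0603) as deposited and 0.28 (adjusted p = 0.247) rescaled, less than its value with all libraries by more than 1.5 times. Plvap was at 1.15 (adjusted p = 0.00169) and 0.93 (adjusted p = 0.00621). Flt4 was at 0.46 (adjusted p = 0.0117) and 0.25 (adjusted p = 0.0913), and Eng was at 0.30 (adjusted p = 0.0928) and 0.05 (adjusted p = 0.789). Tie1 was at -0.31 (adjusted p = 0.0514) as deposited and -0.56 (adjusted p = 0.00614) rescaled. Lyve1 was at -0.70 (adjusted p = 0.0289) and -0.93 (adjusted p = 0.0105). Knockouts 1 and 4 held the highest knockout values of Plvap, Flt4, Ptprb, Lyve1, Emcn, Icam2, Ramp2, Sox18, Vwf and Eng. They held the lowest of Aqp1, and knockout 1 held the highest of Kdr, Tie1, Prox1 and Ushbp1. Leaving these libraries out moves the estimates of all these genes by that choice. Their calls here are therefore a description and no separate support. Kdr, Prox1 and Ushbp1 were at -0.50, -0.52 and -0.56 as deposited, near or beyond the values of -0.42, -0.46 and -0.61 with all libraries.

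Ratios within a library do not depend on its scale. Relative to Cdh5 in the same library, 6 of the 31 other members (Plvap, Flt4, Eng, Ptprb, Fli1 and Sox17) were higher in every knockout library than in every WT library, against 38.9% of all genes. Another 3 (Kdr, Tie1 and Ushbp1) were lower in all, against 13.2%, and 22 overlapped. The ratio of Kdr to Cdh5 was 0.403, 0.387, 0.308 and 0.372 in the knockout and 0.489, 0.525, 0.427 and 0.543 in WT. The ratio of Tie1 to Cdh5 was 0.411 ± 0.0224 in the knockout and 0.496 ± 0.0133 in WT (SD, n = 4), and the ratio of Flt4 was 0.0908 ± 0.0176 and 0.0529 ± 0.00823. Kdr and Tie1 thus took a smaller share beside Cdh5 in the knockout and Flt4 a larger one. Relative to Pecam1, 3 members (Plvap, Flt4 and Ptprb) were higher in all knockout libraries, against 14.2% of all genes. The knockout was lower in all for 8 (Icam2, Kdr, Tie1, Mmrn2, Sox18, Prox1, Ramp2 and Ushbp1), against 21.3%. With either reference some members were separated above WT and others below. Genes over the whole table were separated in both directions too, so this is not particular to the members.

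**Figure D4:**
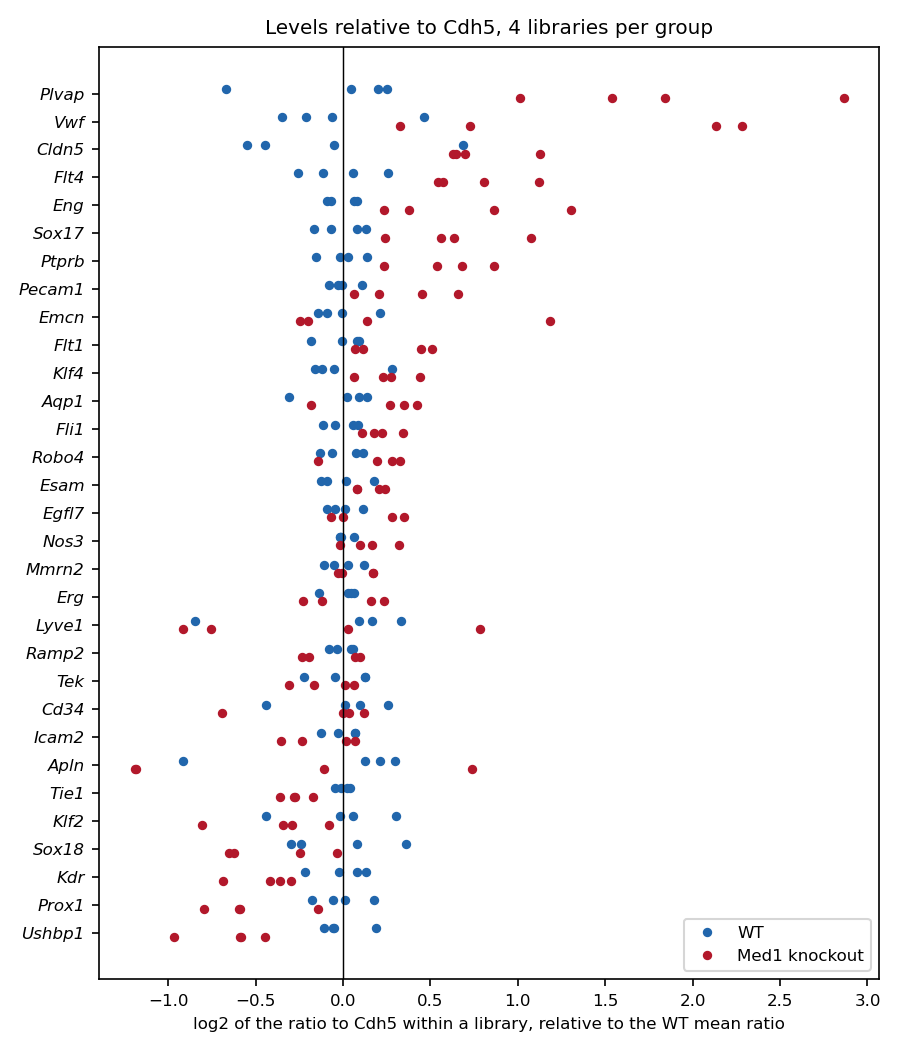
Log2 of each member's FPKM ratio to Cdh5 in the same library, relative to the WT mean ratio, for 4 WT and 4 knockout libraries. The knockout libraries are separated above WT for Plvap, Flt4, Eng, Sox17, Ptprb and Fli1 and below WT for Tie1, Kdr and Ushbp1.

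The authors' deposited table compares pooled groups on their own normalization. There, in the authors' deposited table, 5 members were higher at q under 0.05 (Plvap, Vwf, Flt4, Eng and Cldn5), against 23.1% of the genes tested there. A further 11 were lower (Kdr, Klf2, Prox1, Sox18, Tie1, Ushbp1, Cd34, Tek, Apln, Icam2 and Ramp2), against 22.8%. Of the 32 members, 26 had the same call in the authors' deposited table as in the rescaled comparison. The authors' deposited table gives Kdr as 44.7 FPKM in WT and 27.1 FPKM in the knockout (q = 0.000211), and Plvap as 6.13 and 19.8 FPKM (q = 0.000211). The same q, which follows from the smallest p of 5e-05, stands there for Vwf, Klf2, Prox1, Sox18, Tie1 and Ushbp1.

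Ligands that act on vessels were counted from a list. Of 12 VEGF, angiopoietin and other vessel-active ligands, 10 were tested. As deposited 4 were higher (Adm, Angpt2, Edn1 and Vegfc) and 3 lower (Angpt1, Vegfa and Vegfb), and rescaled 3 were higher and 4 lower. The shares over all genes were 44.9% and 16.4% as deposited and 27.0% and 26.9% rescaled. Angpt1, the ligand that activates Tek, was at 3.58, 1.52, 1.87 and 2.46 FPKM in the knockout and 21.6, 13.6, 12.1 and 13.6 FPKM in WT. Its estimate on the log2 scale was -2.28 (limma adjusted p = 2.46e-05) as deposited and -2.50 (adjusted p = 1.29e-05) rescaled. Edn1, the vasoconstrictor endothelin, rose from 2.35 ± 0.463 to 11.1 ± 3.39 FPKM (SD, n = 4), and Adm, adrenomedullin, from 4.62 ± 0.241 to 16.9 ± 3.80 FPKM, both called on both scales. Vegfb fell from 156 ± 5.54 to 76.9 ± 19.4 FPKM and Vegfa, the ligand of Kdr, from 84.0 ± 4.59 to 61.3 ± 11.0 FPKM, both called on both scales. Vegfc, the ligand of Flt4, rose from 3.83 ± 0.439 to 6.31 ± 1.07 FPKM, also on both scales. Angpt2, which competes with Angpt1 at Tek, had a log2 change of 0.66 (limma adjusted p = 0.049) as deposited and 0.49 (adjusted p = 0.128) rescaled.

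**Figure D5:**
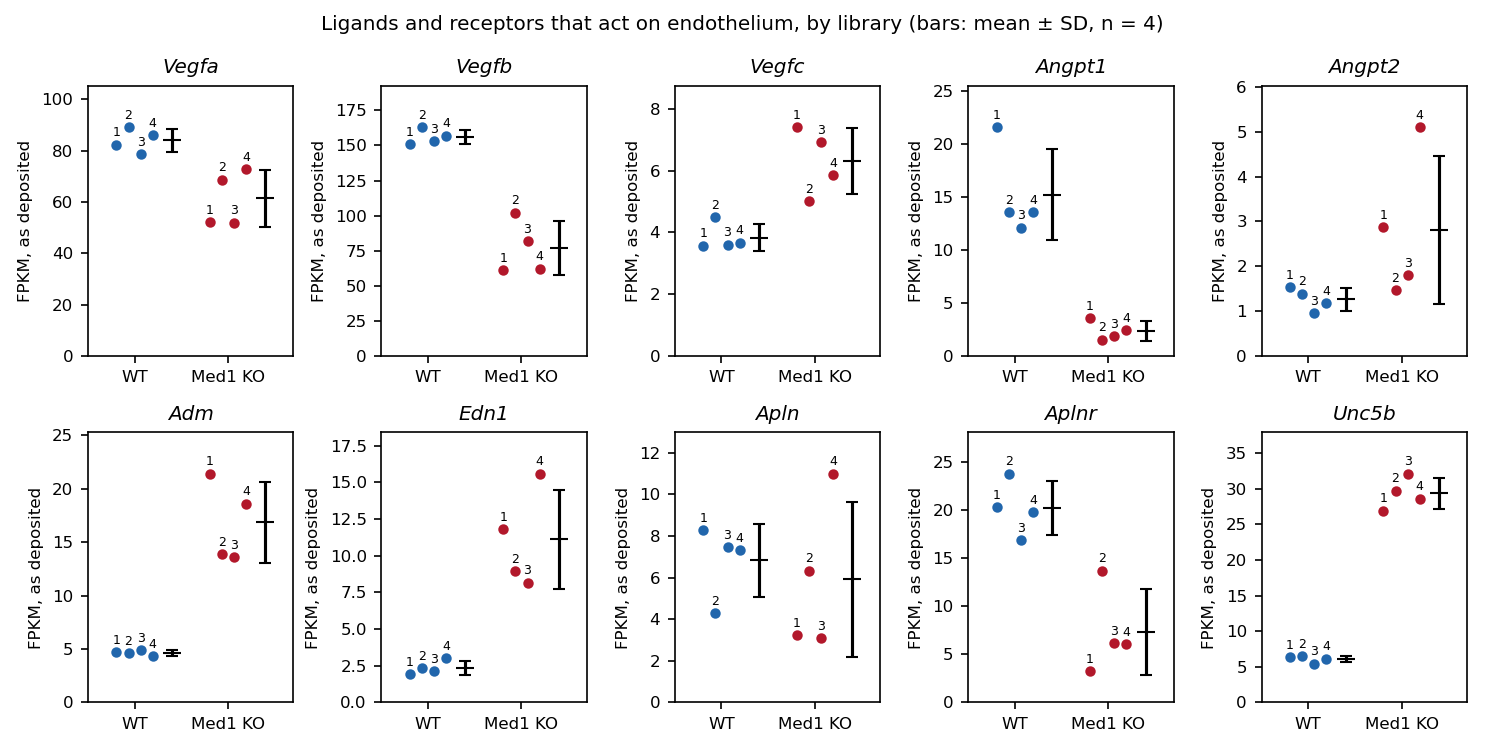
FPKM as deposited of ligands and receptors that act on endothelium in each library (points numbered by replicate; bars, mean ± SD, n = 4; each axis starts at 0). Angpt1, Vegfa, Vegfb and Aplnr lie lower in every knockout library, Vegfc, Adm, Edn1 and Unc5b higher, and Angpt2 and the member Apln overlap.

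Genes of vessel subtypes were counted from lists. Of 11 arterial genes, 7 were higher (63.6%, against 44.9% of all genes) and 1 lower (9.09%, against 16.4%) as deposited. Rescaled, 5 were higher (45.5%, against 27.0%) and 1 lower (9.09%, against 26.9%). Their median log2 change was 0.54 as deposited and 0.31 rescaled. The arterial gene lower on both scales was Cxcl12, at -0.49 and -0.77. Unc5b, a netrin receptor of arteries and sprouts, was at 6.10 ± 0.478 FPKM in WT and 29.3 ± 2.18 FPKM in the knockout (SD, n = 4), and its log2 change was 2.09 (limma adjusted p = 3.59e-07) as deposited and 1.84 (adjusted p = 7.97e-07) rescaled. Fbln5, an elastic fibre protein, and Gja4, the arterial connexin 37, had log2 changes of 1.86 and 0.79 as deposited and 1.62 and 0.53 rescaled. Of 11 cardiac capillary genes, 0 were higher on either scale, and 2 were lower as deposited and 6 rescaled, with a median log2 change of -0.14 and -0.39. For this and the following lists, the shares over all genes were 44.9% higher and 16.4% lower as deposited and 27.0% and 26.9% rescaled. Aplnr, the apelin receptor, was at 3.23, 13.7, 6.19 and 6.09 FPKM in the knockout and 20.3, 23.8, 16.9 and 19.8 FPKM in WT, without overlap. In the fit the log2 change was -1.49 (limma adjusted p = 0.00258) as deposited and -1.74 (adjusted p = 0.00146) rescaled. Tcf15, a capillary transcription factor, had a log2 change of -0.51 (limma adjusted p = 0.0345) as deposited and -0.76 (adjusted p = 0.00626) rescaled.

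Of 12 venous and endocardial genes tested, 4 were higher (33.3%) and 1 lower (8.33%) as deposited, and 2 and 2 (16.7% each) rescaled. The share called higher was thus below that of all genes on both scales. Selp, Icam1 and Vcam1, adhesion molecules for leukocytes, had log2 changes of 1.25, 0.89 and 0.80 as deposited and 1.15, 0.65 and 0.55 rescaled. The highest value of each was in knockout 4. Selp was at 0.108 to 0.17 FPKM in WT and reached the expression minimum only through the knockout. Its call is included in these counts but is no support for a difference. Vcam1 was not called after rescaling (adjusted p = 0.15). Of 3 lymphatic genes tested, Pdpn was higher on both scales, with a log2 change of 1.47 as deposited and 1.25 rescaled, and the other two were not called. Pdpn was also highest in knockout 4, at 15.3 FPKM. Of 9 Notch pathway genes, 4 were higher (44.4%) and 1 lower (11.1%) as deposited, near the shares of all genes, and 2 and 2 (22.2% each) rescaled. Heyl, Notch4 and Nrarp had log2 changes of 1.02, 0.55 and 0.48 as deposited and 0.77, 0.30 and 0.24 rescaled, where Nrarp was not called (adjusted p = 0.0941). Of 20 genes related to shear stress or the KLF family, 8 were higher (40.0%) and 1 lower (5.0%) as deposited, and 6 (30.0%) and 3 (15.0%) rescaled, so the share called higher was near that of all genes. Ptgis, the prostacyclin synthase, Ddah1, which degrades an inhibitor of nitric oxide synthase, and Piezo1, a mechanically gated channel, had log2 changes of 1.84, 1.51 and 1.42 as deposited and 1.58, 1.27 and 1.17 rescaled.

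A further 26 genes found across endothelium, none of them members, were counted in the same way. Of these 5 were higher and 5 lower (19.2% each) as deposited, and 3 (11.5%) and 10 (38.5%) rescaled, with a median log2 change of -0.05 and -0.29. Bmp6 rose from 5.92 ± 1.19 to 16.2 ± 4.36 FPKM (SD, n = 4), with log2 changes of 1.29 as deposited and 1.04 rescaled. Ece1, which activates endothelin, and Ecscr had log2 changes of 0.95 and 0.74 as deposited and 0.68 and 0.47 rescaled. These 3 were also the genes of the list called higher after rescaling. The 5 called lower on both scales were Sox7 (-0.72 and -0.96), Arhgef15 (-0.42 and -0.68), the VEGF co-receptor Nrp1 (-0.35 and -0.62), Myct1 (-0.45 and -0.70) and Cd93 (-0.20 and -0.47). Markers of other cell types in the wall and stroma were called too. Of 10 fibroblast markers 6 were higher (60.0%) and 0 lower as deposited, and 4 (40.0%) and 0 rescaled, with sums of 1319 to 2332 FPKM in the knockout and 1017 to 1352 FPKM in WT. Of 10 genes listed as mural cell markers 4 were higher and 4 lower (40.0% each) as deposited, and 2 and 4 (40.0%) rescaled. Those called include Des, at 763 FPKM in WT and 1772 FPKM in the knockout, and Abcc9, at 72.9 and 20.6 FPKM. Whether these transcripts came from mural cells was not tested. The part of these cell types in the members' results was not tested.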

How the data were processed

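Poly(A) RNA from mouse ventricles was sequenced in 4 Med1cKO and 4 WT libraries. The authors processed reads against mm10 using TopHat (app version 1.0.0), Cufflinks and Cuffdiff, as the submitters' processing notes list. Versions of the latter, the annotation and strand use are not given in the sources. One deposited table holds FPKM for each gene in each library, per the file headers, and the authors deposited a second table of pooled FPKM with p-values and q-values per the file headers. FPKM lets a gene's value fall when others take more of the library. Fragment totals are unknown, so no counting error is given. Groups came from the titles and library names from the descriptions.

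Values of 0.001 FPKM were taken as 0, and 312 entries without data in every library and 1 failed estimate were dropped. The most abundant entry stood for a repeated symbol. limma (version 3.58.1, R 4.3.3, intensity trend) was fitted on log2(FPKM + 1) over genes whose mean reached 1 FPKM, with Benjamini-Hochberg adjustment over all 11974 and a threshold of 0.05, two-sided. Rescaling used median-of-ratios factors. Med1 was also tested with an exact permutation test (scipy 1.17.1). Printed positions are 1-based.

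The members and lists were chosen with earlier results of these data known. Members called on either scale or among the 4 most abundant are given in every library, the others by range (Apln and Lyve1 also in every library and Emcn in every knockout library, chosen after their values were seen). In each companion list up to 3 called genes with the largest change are named. Further ones were chosen after their values were seen, among them Vegfa, Vegfb, Vegfc, Angpt2, Npr3, Cxcl12, Sox7, Arhgef15, Nrp1, Myct1 and Cd93. Alternatives were other scaling, pseudocount 0.1, other minimums, variance models, array weights, a replicate block and each library left out.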

Additional observations from a re-analysis of the deposited data

Results flagged for a closer look

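Of 64 groups of 4 libraries (32 members in both genotypes), 4 held a library far from the other 3 by Dixon's test at its 95% critical value, where chance gives about 1 in 20. Cldn5 in knockout 1 was at 38.5 FPKM, above 25.4 to 26.4 FPKM in the other knockout libraries. Cd34 in knockout 1 was at 58.6 FPKM, below 90.5 to 92.0 FPKM in the other knockout libraries. Egfl7 in WT 2 was at 67.9 FPKM, above 49.5 to 50.5 FPKM in the other WT libraries. Ushbp1 in WT 2 was at 29.6 FPKM, above 19.7 to 21.1 FPKM in the other WT libraries.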

How the results depend on the processing

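The counts depended on scaling. Against 8 members higher and 4 lower as deposited, median-of-ratios rescaling and quantile normalization each gave 3 and 11, and no expression minimum gave 3 and 1, without the calls of Pecam1 (adjusted p = 0.11), Cldn5 (0.134), Kdr (0.0565), Tie1 (0.0974), Eng (0.0777), Vwf (0.0798), Sox17 (0.0853) and Prox1 (0.0771). Without knockouts 1 and 4 they were 4 and 5 as deposited and 1 and 9 rescaled. Over all genes, against 5371 higher and 1964 lower, rescaling gave 3236 and 3223 and quantile normalization 3437 and 3067. Rescaling without knockouts 1 and 4 gave 3158 and 3010. No expression minimum gave 5278 and 1972 over all genes, with the adjustment then also covering genes under 1 FPKM. Leaving out each library in turn, on either scale, gave 2 to 8 members higher and 1 to 10 lower, and 2851 to 5278 genes higher and 1798 to 3169 lower. A pseudocount of 0.1, a minimum of 5 FPKM, no trend, robust variances and array weights kept the member counts within 1.5 times. At the minimum of 5 FPKM, Flt4 was not tested, and 7 of the 31 members tested were higher. The cause of these differences was not tested.

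Replicate numbers did not pair the libraries: same-numbered libraries correlated at -0.04 to 0.14, and not every library correlated best with its own number. With the number as a replicate block, 6 members were higher and 4 lower (5089 and 1867 over all genes). Pecam1, Cldn5 and Tie1 lost their calls, at limma adjusted p = 0.0758, 0.051 and 0.0684, and Klf2 was called lower, at 0.0192. With rescaling and the block 3 members were higher and 8 lower (2966 and 2953 over all genes).

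Log2 changes of some members not called as deposited turned negative on rescaling, with and without the block: Esam -0.12, Emcn -0.05, Robo4 -0.11, Egfl7 -0.14, Mmrn2 -0.19, Erg -0.24, Fli1 -0.06, Klf4 -0.02, Nos3 -0.13 and Aqp1 -0.06. Quantile normalization gave Esam -0.12, Emcn -0.05, Robo4 -0.10, Egfl7 -0.13, Mmrn2 -0.18, Erg -0.24, Fli1 -0.05, Klf4 -0.01 and Nos3 -0.13. Array weights gave Cdh5 0.02. Without knockouts 1 and 4, Emcn was -0.21, Cd34 0.03 and Egfl7 -0.04. With rescaling as well, Pecam1 was -0.12, Esam -0.03, Emcn -0.46, Flt1 -0.15, Egfl7 -0.29, Mmrn2 -0.17, Erg -0.21, Fli1 -0.05 and Nos3 -0.21. With each library left out on either scale, the ranges that crossed 0 were Aqp1 -0.13 to 0.33, Cd34 -0.47 to 0.04, Cdh5 -0.31 to 0.07, Egfl7 -0.21 to 0.25, Emcn -0.33 to 0.37, Erg -0.29 to 0.06, Esam -0.20 to 0.20, Fli1 -0.11 to 0.25, Flt1 -0.08 to 0.35, Klf4 -0.10 to 0.33, Lyve1 -0.66 to 0.09, Mmrn2 -0.24 to 0.11, Nos3 -0.17 to 0.18 and Robo4 -0.19 to 0.22, while Pecam1 ran from 0.00 to 0.44. With 4 libraries per group and unknown fragment totals, members at a few FPKM, such as Flt4, Prox1 and Sox17, cannot be given a counting error.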
